A study of Mus musculus with 2 samples.

Results

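The NF-κB subunits and their feedback inhibitors were followed in RAW264.7 cells, an established macrophage line from a tumor that Abelson murine leukemia virus induced in an adult male BALB/c mouse, after 24 h in DMEM with fetal bovine serum and either vehicle control or IR-61. IR-61 is a lipophilic, positively charged near-infrared heptamethine cyanine dye that collects in mitochondria, and the legend of the microarray panel gives its dose as 10 μM. The 10 genes were chosen by name, with earlier results of these data known, out of 20655 genes that could be named on the array. They are the subunits *Nfkb1*, *Nfkb2*, *Rel*, *Rela* and *Relb* and a group called inhibitors here, *Nfkbia*, *Nfkbib*, *Nfkbie*, *Nfkbiz* and *Tnfaip3*. The protein of *Nfkbiz* also acts with NF-κB on some genes. The gene microarray held 1 culture and 1 single-colour array per condition, and the labels name no stimulus beside the vehicle or the dye. The comparison asks how the dye changed macrophage gene expression, and with 1 array per condition it has no replicate check, no test and no p-value.

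NF-κB is a family of dimeric transcription factors that sits in the cytosol of resting macrophages, held there by IκB proteins. Signals from Toll-like and cytokine receptors activate the IKK kinases, the IκB protein is phosphorylated and degraded, and the freed dimer switches on cytokine, chemokine and survival genes. Several of the inhibitors are themselves NF-κB target genes, so that an active pathway makes more of its own brakes, and this feedback is well known in macrophages.

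The promoters of the family are shown because such feedback is known to run through κB sites near the start of these genes. RefSeq promoter sequence of the mouse assembly GRCm38.p6 was at hand for 7 of the 10 genes, as windows of 250 bases before to 50 bases after a transcription start, and for *Nfkb1*, *Relb* and *Nfkbiz* none was used. The windows were searched on both strands for the κB consensus motif, the site bound by NF-κB dimers. Below are the 130 bases before the start, 5′ to 3′ on the strand of the gene, with each match in capitals and overlapping matches joined. They lie at chr17:45555570-45555699 (plus strand) for *Nfkbie*, chr12:55492648-55492777 (minus strand) for *Nfkbia*, chr19:46304607-46304736 (plus strand) for the first of 3 starts of *Nfkb2*, chr11:23770970-23771099 (minus strand) for *Rel*, chr10:19015411-19015540 (minus strand) for the first listed start of *Tnfaip3*, chr7:28766645-28766774 (minus strand) for *Nfkbib* and chr19:5637411-5637540 (plus strand) for *Rela*.
Nfkbie: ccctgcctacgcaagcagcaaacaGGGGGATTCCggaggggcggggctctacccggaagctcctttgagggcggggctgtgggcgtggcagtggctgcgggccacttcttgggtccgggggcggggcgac
Nfkbia: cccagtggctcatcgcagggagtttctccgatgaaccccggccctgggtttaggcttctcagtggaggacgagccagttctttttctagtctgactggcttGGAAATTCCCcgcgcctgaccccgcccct
Nfkb2: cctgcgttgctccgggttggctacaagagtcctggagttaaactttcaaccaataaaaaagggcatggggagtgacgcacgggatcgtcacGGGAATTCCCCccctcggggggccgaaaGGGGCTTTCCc
Rel: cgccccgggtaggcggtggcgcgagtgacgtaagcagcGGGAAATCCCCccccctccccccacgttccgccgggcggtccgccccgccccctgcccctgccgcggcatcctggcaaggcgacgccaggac
Tnfaip3: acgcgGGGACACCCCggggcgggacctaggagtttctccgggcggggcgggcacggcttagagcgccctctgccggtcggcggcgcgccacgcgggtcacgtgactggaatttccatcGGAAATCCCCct
Nfkbib: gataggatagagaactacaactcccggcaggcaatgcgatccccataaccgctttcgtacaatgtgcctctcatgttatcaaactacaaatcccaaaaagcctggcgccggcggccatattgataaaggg
Rela: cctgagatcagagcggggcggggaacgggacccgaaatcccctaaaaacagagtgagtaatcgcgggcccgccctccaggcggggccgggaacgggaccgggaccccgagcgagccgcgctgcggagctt

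The motif was found for *Nfkbie*, *Nfkbia*, *Nfkb2*, *Rel* and *Tnfaip3*, that is 5 of the 7 genes, and not in the windows of *Nfkbib* and *Rela*. Its first base lay 106 bases before the start in *Nfkbie*, 29 in *Nfkbia*, 92 in *Rel*, 39 and 11 in *Nfkb2* and 125 and 12 in *Tnfaip3*. The other windows of *Nfkb2* held matches 236 bases before 1 start and 225 bases before another, and the second window of *Tnfaip3* held none. The *Nfkb2* window with the match at 236 bases also held a match with its first base at position +11 from its start. These *Nfkb2* windows overlap, and the match at +11 is the same site as the one at 225 bases, counted from another start. For comparison, 1388 of 27025 genes with a window, 5.14%, held the κB consensus motif in at least 1 of their windows, and 4.51% of all 32851 windows did. A match describes these letters only and is neither a bound site nor a cause, and a window without one says nothing about the factor.

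All 10 genes were measured on both arrays, through 14 probes without outlier flags that each passed the scanner software's test of being well above background for vehicle and for IR-61. *Nfkb1* and *Relb* were read by 2 probes each, *Nfkbib* by 3 and the other 7 genes by 1, and every probe was a single spot. The IR-61 array was brighter as a whole, with a 75th percentile of the log2 signal of 10.79 against 10.30 for vehicle, and each array was scaled by subtracting that percentile. A log2 difference below is IR-61 minus vehicle after this scaling, and a gene takes its brightest probe. Over 16885 measured genes the median difference was 0.10, with an SD across genes of 0.44. The SD given beside a difference is the one expected from the spread between spots of other probes printed 10 times at like signal, and it covers noise within an array only.

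The cells were checked against marker genes. Of 10 macrophage markers 9 could be named, with *Cd68* not analysed here, and all 9 were measured on both arrays. Their median unscaled signal was 19500 with vehicle and 24200 with IR-61, and the median of their log2 differences after scaling was 0.06. Of 18 markers of T cells, B cells, fibroblasts, epithelium, adipocytes and endothelium 13 were well above background, with median unscaled signals over the 18 of 119 and 129. The 3 fibroblast markers stood out from these, since *Col1a1* read 27148 with vehicle and 58670 with IR-61, *Col1a2* 15029 and 22576, and *Dcn* 16543 and 21738, while *Cd3g*, *Epcam*, *Cdh1*, *Adipoq* and *Lep* passed that background test on neither array. Summed over the 3 fibroblast markers the unscaled signal was 58719 with vehicle and 102984 with IR-61, and after scaling the log2 differences were 0.62 for *Col1a1*, 0.10 for *Col1a2* and −0.09 for *Dcn*. Of the 9 macrophage markers 5 had a log2 difference above 0 after scaling and 4 below. *Aif1* was at 1.08, *Adgre1* at 1.03, *Fcgr1* at 0.99, *Itgam* at 0.65 and *Csf1r* at 0.06. *Ptprc* was at −0.09, *Lyz2* at −0.18, *Tyrobp* at −0.23 and *Spi1* at −0.83. The part of these markers in the results below was not tested, and fewer cells of a type and less RNA per cell cannot be told apart in such samples.

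After IR-61, 5 members of the family showed a signal at least 2-fold lower, none was higher by 2-fold, and all 10 log2 differences were below 0, of which those of *Nfkb1* and *Rela* turn positive without scaling. Across all measured genes 1.39% were lower by 2-fold or more, 1.99% were higher by 2-fold or more, and 38.8% had a difference below 0. Because the 10 genes were chosen with earlier results of these data known, this contrast is no independent evidence of a direction. The median of the 10 genes was −0.98, which is 1.08 below the median of all measured genes on the log2 scale. From the largest difference down they ran *Nfkbie*, *Nfkbia*, *Relb*, *Nfkb2*, *Nfkbiz*, *Rel*, *Tnfaip3*, *Nfkbib*, *Nfkb1* and *Rela*. Before any scaling the signal was lower with IR-61 for 8 of the 10 genes, 3 of them by 2-fold or more, since *Nfkb2* was then at −0.95 and *Nfkbiz* at −0.69. The plot of unscaled signals shows every probe with both its values.

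**Figure D1:**
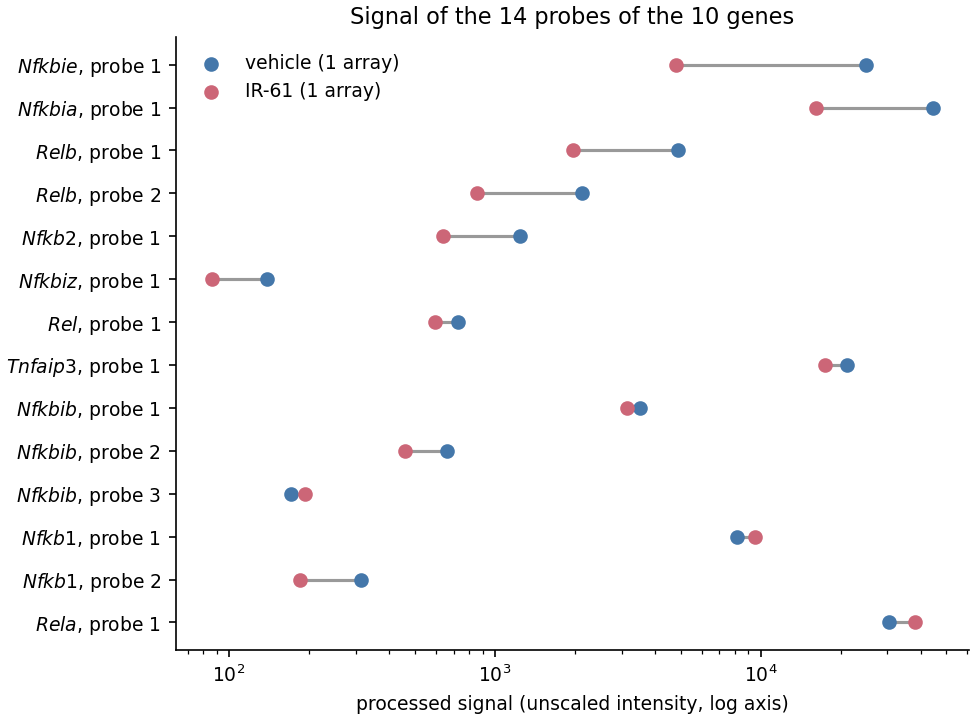
Unscaled processed signal (x axis, log scale) of each of the 14 probes, with 1 point for the vehicle array and 1 for the IR-61 array joined by a line. Points should be compared within a row only. The IR-61 point lies left of the vehicle point for 11 probes and right of it for *Rela*, the brightest probe of *Nfkb1* and the dimmest of *Nfkbib*.

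*Rela*, which encodes the transactivating subunit p65, had a signal of 30375 with vehicle and 38127 with IR-61. Its log2 difference after scaling was −0.16 with an SD from spots of 0.095, so that the unscaled signal was higher and the scaled one slightly lower. This difference was 1.70 times that SD, the smallest ratio of the 10 genes. Relative to the median of all measured genes *Rela* lay 0.26 lower on the log2 scale, a value that no single scaling factor can change.

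*Nfkb1* encodes the precursor that is processed to p50, the usual partner of p65. Its brightest probe read 8184 with vehicle and 9544 with IR-61, and its log2 difference was −0.27 ± 0.09 (SD from spots), or 0.22 in the opposite direction without scaling. Its second probe was far dimmer, with 313 and 185, and had a log2 difference of −1.25 ± 0.23. The probes of *Nfkb1* thus gave different sizes, 0.98 apart on the log2 scale with an SD of 0.25. Among 4160 genes with 2 or more measured probes the brightest and the second probe lay a median of 0.32 apart, and 94.2% of these genes had a smaller gap than *Nfkb1*. The arrays therefore do not settle how far *Nfkb1* differed.

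*Rel* encodes c-Rel, the subunit known for its role in *Il12b* transcription in macrophages. It read 730 with vehicle and 595 with IR-61, and its log2 difference was −0.78 ± 0.23, equal to a 1.72-fold lower signal after scaling. It stayed short of the 2-fold limit.

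*Relb* encodes the main transactivating subunit of the alternative NF-κB pathway and is an NF-κB target gene. Its first probe read 4897 with vehicle and 1965 with IR-61, and its second read 2136 and 856. Both probes were lower with IR-61 and gave nearly the same log2 difference, −1.81 ± 0.09 and −1.81 ± 0.16, for a 3.50-fold lower signal. Their gap was 0.003, and 0.577% of the genes with several probes had a smaller one.

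*Nfkb2* encodes the precursor that is processed to p52, the partner of RelB, and is likewise known as an NF-κB target. It read 1239 with vehicle and 640 with IR-61 for a log2 difference of −1.44 ± 0.16, or 2.72-fold. Both subunits of the alternative pathway, *Relb* and *Nfkb2*, thus lay beyond 2-fold, and the brightest probes of the classical subunits *Rela*, *Nfkb1* and *Rel* did not. Because an array's scaling factor drops out between genes of the same pair of arrays, this contrast can be read directly. *Relb* was 3.13-fold lower relative to *Rela*, a log2 value of −1.65 ± 0.13, and *Nfkb2* was 2.26-fold lower relative to *Nfkb1*, at −1.17 ± 0.19. With the second probe of *Nfkb1* in place of the brightest, the latter contrast would be small, since that probe alone was at −1.25.

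**Figure D2:**
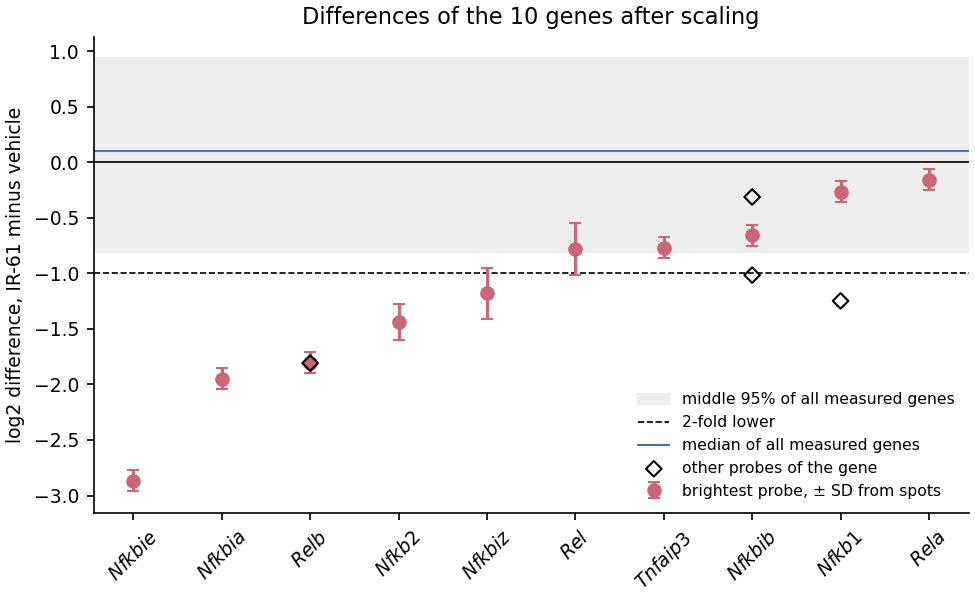
Log2 difference (IR-61 minus vehicle, y axis) of the 10 genes in order, with filled points for the brightest probe, bars for the SD expected from spots and open diamonds for further probes. The grey band holds the middle 95% of all measured genes, from −0.81 to 0.93. *Nfkbie*, *Nfkbia*, *Relb*, *Nfkb2* and *Nfkbiz* lie below the 2-fold line, as do the second probes of *Relb*, *Nfkb1* and *Nfkbib*, and *Nfkb1* and *Rela* lie close to 0 and turn above 0 without scaling.

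By their brightest probes the inhibitors had a lower median than the subunits, −1.18 over 5 genes against −0.78 over 5. Their ranges overlapped, at −2.87 to −0.66 and −1.81 to −0.16. By these probes 3 of the inhibitors and 2 of the subunits were lower by 2-fold or more. The median of the inhibitors is the value of *Nfkbiz*, which was −0.88 with normexp. The order of the medians also depends on the probe of *Nfkb1*. With its second probe, at −1.25, the subunits would have the lower median.

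*Nfkbie* encodes IκBε, a cytosolic inhibitor that is made in response to NF-κB and holds mainly RelA and c-Rel dimers. It read 24953 with vehicle and 4802 with IR-61. Even unscaled, the IR-61 signal was the lower by far, and after scaling the log2 difference was −2.87 ± 0.09, or 7.29-fold. This was the largest difference of the family and took rank 10 from the lowest among the 16885 measured genes. It exceeded that of *Nfkbia*, next in order, by 0.92 with an SD of 0.13.

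*Nfkbia* encodes IκBα, the inhibitor that is degraded and resynthesised fastest. It read 44410 with vehicle and 16118 with IR-61, a 3.87-fold lower signal after scaling with a log2 difference of −1.95 ± 0.09, and took rank 32. It and *Relb*, at rank 44, lay close together, with a gap of 0.14 and an SD of 0.13 expected from spots. *Nfkbie*, *Nfkbia* and *Relb* were the 3 members lower by 3-fold or more.

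*Nfkbib* encodes IκBβ, the classical inhibitor whose gene responds least to NF-κB. Its 3 probes, from the brightest down, read 3521, 660 and 171 with vehicle and 3132, 458 and 193 with IR-61. Their log2 differences were −0.66 ± 0.09, −1.02 ± 0.23 and −0.31 ± 0.23. The dimmest was higher with IR-61 before scaling and the middle one lay at the 2-fold limit after it, so the probes share a direction only after scaling. The 3 classical inhibitors were therefore unequal. Relative to *Rela*, *Nfkbie* was 6.52-fold lower, *Nfkbia* 3.46-fold and *Nfkbib* 1.41-fold, with log2 values of −2.71, −1.79 and −0.50 and an SD of 0.13 each.

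*Nfkbiz* encodes IκBζ, an inducible nuclear protein that acts with NF-κB on a secondary set of inflammatory genes. It was the dimmest member, with 139 for vehicle and 86.2 for IR-61. The log2 difference was −1.18 ± 0.23, a 2.27-fold lower signal, close enough to the 2-fold limit that this SD spans it. With normexp background correction it was −0.88 and no longer passed. The lowest signals counted as well above background were 12.8 and 15.0, so the probe was measured on both arrays.

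*Tnfaip3* encodes A20, the ubiquitin-editing enzyme that shuts off signalling upstream of IKK and a strongly induced NF-κB target. It read 21207 with vehicle and 17451 with IR-61, a difference of −0.77 ± 0.09 and a 1.70-fold lower signal after scaling. A20 thus differed less than *Nfkbie* and *Nfkbia* on these arrays. In order of size, *Rel*, *Tnfaip3* and *Nfkbib* lay within 0.13 of each other on the log2 scale and were not separated beyond the spread between spots. By the brightest probes a wider step of 0.39, with an SD of 0.13, lay between *Nfkbib* and *Nfkb1*. *Nfkb1* and *Rela* were again not separated by these probes. Other probes do not keep that step, since the second of *Nfkb1* was at −1.25 and the dimmest of *Nfkbib* at −0.31.

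**Figure D3:**
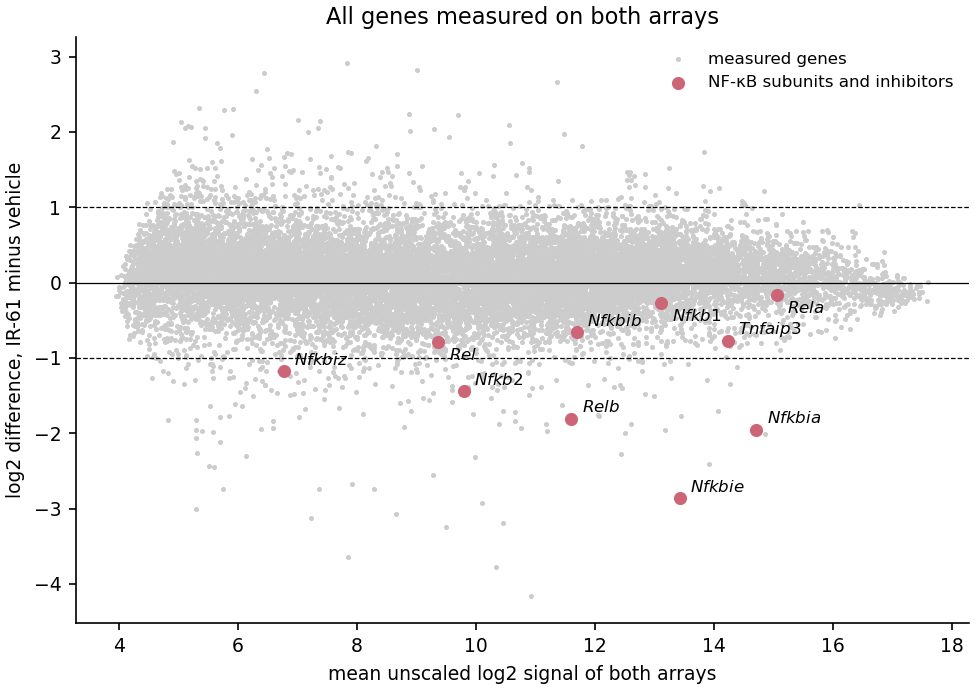
Log2 difference (IR-61 minus vehicle, y axis) against the mean unscaled log2 signal of both arrays (x axis) for the 16885 genes measured on both, in grey, with the 10 members in red and dashed lines at 2-fold. *Nfkbie* and *Nfkbia* lie at the lower edge among genes of high signal, and *Nfkb1* and *Rela* lie inside the cloud.

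Of the 10 members 8 lay among the lowest 5% of all measured genes, from *Nfkbie* down to *Nfkbib* at rank 730, and *Nfkb1* and *Rela* took ranks 2925 and 4131. The genes nearest to *Nfkbie* in size of difference were *Gpr84* at −2.92, *Icosl* at −2.74, *Cd69* at −2.74, *Asb2* at −2.74, *Samd12* at 0.14 below *Nfkbie* and *Pde4b* at −3.07. *Samd12* and *Asb2* were dim, at 94.2 and 117 with vehicle and 16.5 and 24.7 with IR-61. The lowest signal counted as well above background with IR-61 was 15.0. The likeness to *Nfkbie* is that of a single number from 1 pair of arrays. The median over 168 to 341 neighbouring spots of each member probe departed from the array median by between −0.063 and 0.11 on the log2 scale.

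Of the further IκB proteins, *Bcl3*, a nuclear member that binds p50 and p52 homodimers, read 25983 with vehicle and 11204 with IR-61 and had a log2 difference of −1.70. *Nfkbid*, another nuclear member, was at −0.16 and *Nfkbil1* at 0.04. So 1 of these 3 was lower by 2-fold or more.

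Of 11 genes for IKK subunits and associated kinases 1 was lower by 2-fold or more and none was higher, with a median of −0.26. Without scaling none was lower, 1 was higher and the median was 0.23. Over all 16885 measured genes 72 were lower and 2156 higher without scaling, against 235 and 336 with it. The kinase gene lower after scaling was *Ikbke*, an inducible IKK-related kinase, which read 1510 with vehicle and 1004 with IR-61. It was at −1.08, a value near the limit that did not pass it without scaling or with normexp. *Chuk*, encoding the catalytic subunit IKKα, was highest at 0.61, *Ikbkb* for IKKβ was at −0.34 and *Ikbkg* for the scaffold NEMO at −0.41. *Map3k14*, encoding the NIK kinase of the alternative pathway, was at −0.70, with a second probe at −0.05. Among 10 adaptors and ligases upstream of IKK the median was −0.54, or −0.05 without scaling, and 1 was lower by 2-fold or more. This was *Birc3*, a ubiquitin ligase and NF-κB target, at 727 with vehicle, 269 with IR-61 and a log2 difference of −1.92. *Myd88*, the adaptor of most Toll-like receptors, was at −0.64, and *Tradd*, the TNF receptor adaptor, was highest at 0.31.

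The partners of A20 and other negative regulators split in both directions, with 6 of 11 below 0 and 5 above. By 2-fold or more 3 were lower and none was higher, against 2 lower and 1 higher without scaling. Over all 16885 measured genes 235 were lower and 336 higher, against 72 and 2156 without scaling. The median of the 11 genes was −0.65, or −0.16 without scaling. *Tnip3*, an inducible A20-binding protein, read 1274 with vehicle and 305 with IR-61 and was at −2.55, with a second, dimmer probe at −1.56. *N4bp1*, a regulator that restrains NF-κB signalling, was at −1.67 with signals of 311 and 137. *Tax1bp1*, an adaptor of A20, was at −1.04 with signals of 8553 and 5855, a value near the limit that did not pass it without scaling. *Itch*, a ligase of the A20 complex, was highest at 0.68. *Tnip1*, a constitutive A20-binding protein, was at −0.65, close to *Tnfaip3* itself.

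The ubiquitin machinery that degrades IκB had a median of 0.02 over 6 genes, or 0.51 without scaling, and lay slightly below 0 with the other scalings and with the deposited log2 values. *Btrc*, encoding the β-TrCP receptor that recognises phosphorylated IκB, was highest at 1.02, with 153 for vehicle and 437 for IR-61, but its second probe was at 0.33 ± 0.38. *Fbxw11*, its close relative, was at 0.46 by its first probe and 0.42 by its second, and *Cul1*, the cullin scaffold, was lowest at −0.33. None was lower by 2-fold and 1 was higher, and *Btrc* no longer passed the limit with scaling by the median, with the 75th percentile over detected probes, with quantile normalization, with loess, with normexp or as the mean of its probes. RelA cofactors and turnover factors had a median of −0.17 over 9 genes, or 0.32 without scaling, and ran from *Crebbp*, a histone acetyltransferase, at −0.54 to *Sirt1*, a deacetylase of RelA, at 0.70. None of them passed 2-fold in either direction, and without scaling 1 was higher, as were 2156 of all 16885 measured genes.

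**Figure D4:**
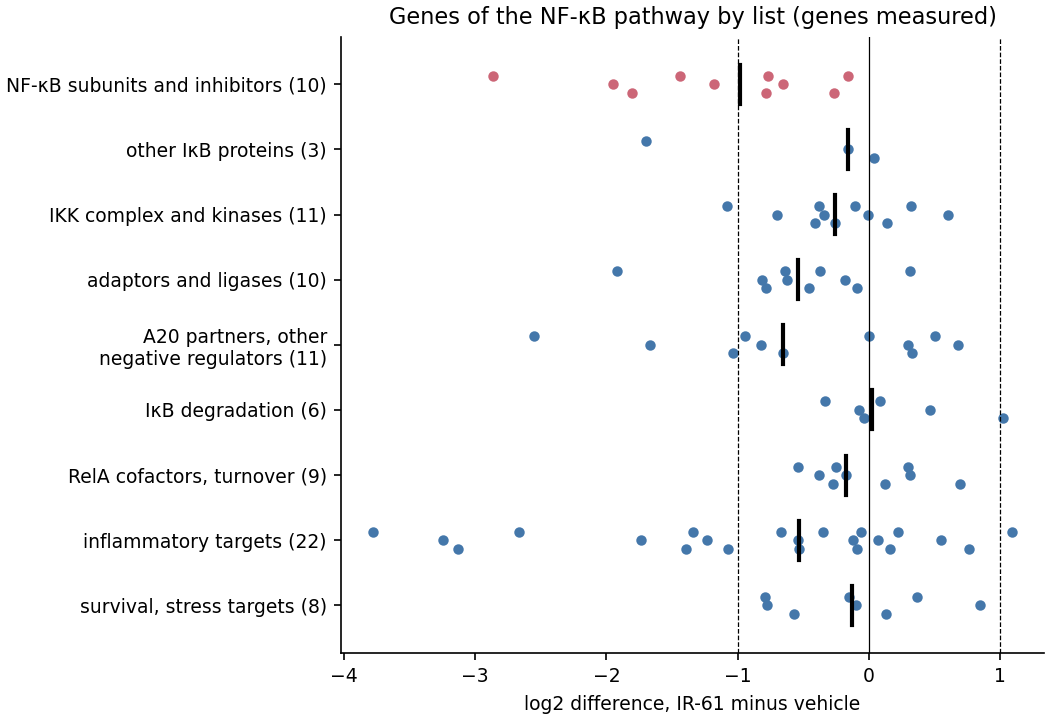
Log2 difference (IR-61 minus vehicle, x axis) of every measured gene in the NF-κB family (red) and in 8 further lists of the pathway (blue), 1 point per gene, with black bars at the medians, dashed lines at 2-fold and the number of measured genes in brackets. Points of the 10 members and of the inflammatory targets extend furthest to the left, while the lists for IκB degradation and RelA cofactors have medians of 0.02 and −0.17, which are 0.51 and 0.32 without scaling.

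Among 22 inflammatory target genes 9 were lower by 2-fold or more and 1 was higher, with a median of −0.53. Without scaling 5 were lower, 3 were higher and the median was −0.04, and with the 3-fold limit 5 were lower. The lower ones were *Il1b* at −3.78, *Tnf* at −3.24, *Cxcl2* at −3.13, the adhesion molecule *Icam1* at −2.67, the interleukin-1 receptor antagonist *Il1rn* at −1.74, *Cxcl1* at −1.40, *Cd83* at −1.34, the co-stimulatory receptor *Cd40* at −1.24 and *Cxcl10* at −1.08. The chemokine *Ccl3* was higher, at 1.09. Over all 16885 measured genes 1.39% were lower and 1.99% higher by 2-fold or more. Without scaling 72 of them were lower and 2156 higher, and with the 3-fold limit 64 were lower. Several genes of the inflammatory list were picked by the study from these arrays, so its count is no independent evidence of a direction. Of 10 survival and stress targets 8 could be named and none passed 2-fold, against 1 higher without scaling, with a median of −0.13 that was 0.36 without scaling, *Ier3* lowest at −0.79 and *Xiap*, an inhibitor of caspases, highest at 0.85. *Nfkbie* at −2.87 and *Nfkbia* at −1.95 lay within the range of the 9 lower inflammatory targets, a group picked by its values. Other inflammatory targets did not reach 2-fold lower, such as *Ccl2* at −0.35, *Il6* at 0.16 and *Ccl4* at 0.55. Neither did the feedback inhibitor *Tnfaip3* at −0.77, nor survival targets such as *Sod2* at −0.57 and *Bcl2l1* at 0.37. The lists therefore do not part cleanly. *Bcl2a1a* and *Bcl2a1b* were not analysed here.

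Over the whole array, 28 of the 183 genes with a promoter window that were lower by 2-fold or more, 15.3%, held the κB consensus motif, against 807 of 13422 measured genes with a window, 6.01%. The family members *Nfkbie*, *Nfkbia* and *Nfkb2* are among the 28, while *Rel* and *Tnfaip3*, which also held the motif, were not lower by 2-fold. No test was made of these shares, and whether the motif had a part in any difference was not tested.

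**Figure D5:**
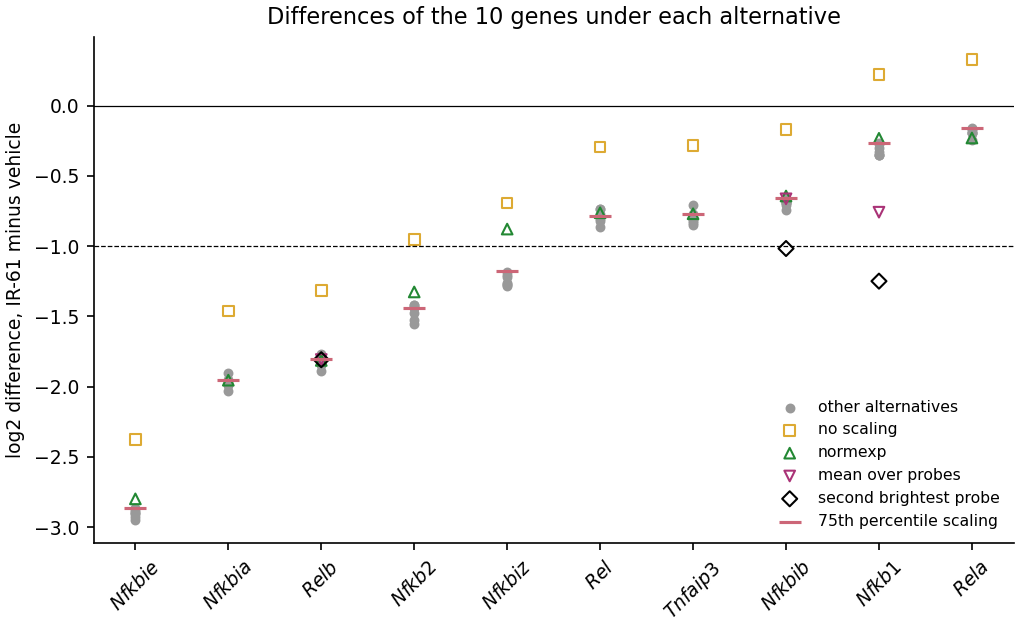
Log2 difference (IR-61 minus vehicle, y axis) of each of the 10 genes with scaling by the 75th percentile (red bar) and under each alternative (symbols). Without scaling every value moves up by the same 0.49 and *Nfkb1* and *Rela* turn positive, and the second probe of *Nfkb1* lies well below the first, while the order of the genes from *Nfkbie* to *Nfkbiz* stays as it was under the settings drawn.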

How the data were processed

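The gene microarray measured total RNA of 2 RAW264.7 cultures, 1 with vehicle control and 1 with IR-61, labelled with Cy3 on Agilent single-colour mouse arrays of the same slide. The authors deposited, per the file headers from Feature Extraction 11.0.1.1 and a G2505C scanner, the intensity of each spot after background subtraction and detrending within the array. The processing notes name version 11.0.0.1. The authors also deposited log2 values per probe, whose making is not given in the sources used here. Both columns have a median of 7.15 and equal quartiles, and they followed the log2 intensities with r = 0.9995 for vehicle and 0.9988 for IR-61 across probes.

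Control features and flagged outlier spots were removed, spots of 1 probe were averaged as log2 intensities, and each array was scaled by subtracting its 75th percentile. Of 39419 probes 27224 were named, by RefSeq accession without version, through a gene table of GRCm38.p6, used for names because the array design is on mm9. A gene takes its brightest probe that was well above background on at least 1 array and not saturated. The SD from spots pools probes with 5 or more spots, in bins of log2 signal under 6, from 6 to 10 and above.

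The 10 members and the lists were chosen with earlier results of these data known. The genes named are the members, in each list those past 2-fold with its largest and smallest value, and the 3 genes on either side of the member with the largest difference, and further list genes were named as examples after their values were seen. The number of arrays limits the precision. The alternatives were other scalings, the deposited log2 values, normexp (offset 50), outlier spots kept, other probes of a gene, a 3-fold limit and other filters on dim probes. Subtraction of neighbouring spots (10 rows and columns) and, for normexp, replacing the local background of 4 IR-61 spots were chosen after seeing the data. Steps were tested on simulated data. Python 3.11.15, numpy 2.4.6, pandas 2.3.3, statsmodels 0.14.6, matplotlib 3.10.9, R 4.3.3 and limma 3.58.1 were used.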

Additional observations from a re-analysis of the deposited data

How the results depend on the processing

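No paired analysis was possible because only 1 array was made of each condition. *Nfkbie*, *Nfkbia* and *Relb* were lower by 2-fold or more under every alternative run on them, between −2.95 and −2.38, −2.03 and −1.46, and −1.89 and −1.32.

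Without scaling the median of all measured genes moved from 0.10 to 0.59, and the members were at −2.38 for *Nfkbie*, −1.46 for *Nfkbia*, −1.32 for *Relb*, −0.95 for *Nfkb2*, −0.69 for *Nfkbiz*, −0.29 for *Rel*, −0.28 for *Tnfaip3*, −0.17 for *Nfkbib*, 0.22 for *Nfkb1* and 0.33 for *Rela*, with a median of −0.49 and 3 rather than 5 past the 2-fold limit. The list medians that turned positive were 0.23 for IKK and kinases, 0.33 for other IκB proteins, 0.32 for RelA cofactors and 0.36 for survival targets. The other list medians were −0.04 for inflammatory targets, −0.05 for adaptors, −0.16 for A20 partners and 0.51 for IκB degradation. With normexp *Nfkbiz* was at −0.88 and the median of the members at −0.82. *Nfkb1* was at −0.76 as the mean of its probes and −1.25 by its second probe, and *Nfkbib* at −1.02 by its second. With the 3-fold limit 3 members were lower. Of the inflammatory targets 5 were lower, in place of 9, without scaling as with the 3-fold limit.

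Over all genes 235 were lower and 336 higher by 2-fold or more. These counts were 72 and 2156 without scaling, 149 and 124 with normexp, 64 and 50 with the 3-fold limit and 440 and 921 without a filter on dim probes, and 199 were higher with the stricter filter. Of the genes past 2-fold 41.2% were lower, against 54.2% with scaling by the median, 52.0% with quantile normalization, 52.2% with loess, 51.4% with the deposited values and 3.23% without scaling. Single spots and 1 array per condition limit every value.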
